A study of Mus musculus with 7 samples.

Results

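The chemokine system of the liver was described gene by gene: every row of the count table whose mouse symbol begins with Ccl, Cxcl, Ccr, Cxcr or Ackr and a digit, or is Cx3cl1, Cx3cr1, Xcl1, Xcr1 or Ccrl2. That rule took 59 of the 37620 rows, of which 34 are ligands, 24 are receptors and 1 is a pseudogene, Ccl19-ps1. RNA was sequenced from whole flash-frozen liver of C57BL/6 mice with high total bile acids (H-TBA, 4 libraries) and with low total bile acids (L-TBA, 3 libraries). Mice of both groups had eaten a Western diet for 30 weeks, and no untreated or chow-fed group was compared here. Nothing in the labels ties a library to an animal of its own, and the p-values therefore reflect only how far these libraries spread, which may be technical.

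Chemokines are small secreted or membrane-anchored proteins that draw leukocytes along a gradient, and their family names (CC, CXC, CX3C, XC) describe the spacing of the conserved cysteines near the amino terminus. Their receptors span the membrane as G protein-coupled receptors, except that the atypical receptors take up or hold chemokines without the usual G protein signal. In the liver, Kupffer cells, sinusoidal endothelium, stellate cells, bile duct epithelium and hepatocytes can all release ligands, and the receptors sit mostly on the leukocytes that are resident or recruited.

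The libraries held 9996990 to 12152613 counts. On the leading principal component of all tested genes, which carried 64.7% of the variance, H-TBA 2 to 4 lay between 34.6 and 43.5, H-TBA 1 at 10.7, and the L-TBA libraries between -45.2 and -36.8. H-TBA 1 was thus the library of its group nearest to L-TBA. L-TBA 3 stood apart by high B cell and Kupffer cell transcripts, which are given below with Cxcl13 and with Ccl6. The hepatocyte list of 8 genes summed to 57054 to 66203 CPM in H-TBA and 62309 to 73410 CPM in L-TBA, where CPM is the count scaled to library size with TMM factors.

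Of the 59 genes, 34 had enough counts to be tested, 21 ligands and 13 receptors. The groups were compared by edgeR's quasi-likelihood test over all 15249 tested genes, and a gene was called at a Benjamini-Hochberg adjusted p under 0.05. Every adjusted p below is from that test unless another is named. Every fold change is H-TBA over L-TBA and is given on the log2 scale, so a positive value means higher in H-TBA. In the ligand group 2 rose (Cx3cl1, Cxcl5) and 6 fell (Ccl6, Cxcl10, Cxcl1, Cxcl9, Ccl4, Ccl8). In the receptor group 3 rose (Cx3cr1, Cxcr4, Cxcr6) and 2 fell, of which Cxcr2 is described here. Calls thus covered 38.1% of tested ligands and 38.5% of tested receptors, against a background of 23.9% of all tested genes, 13.1% higher and 10.7% lower (2003 and 1635 genes, against 3117 and 832 with library totals in place of TMM). Once L-TBA replicate 1 was left out, 3 of 13 receptors (23.1%) and 16.6% of all tested genes were called, and 1 receptor rose; 1 rose also without L-TBA replicate 2. The median log2 fold change was -0.30 over the tested ligands, 0.23 over the tested receptors and 0.00 over all tested genes. Fold changes were negative for 15 of 21 ligands and positive for 10 of 13 receptors. Library totals moved the median of all tested genes to 0.16, and with them the negative fold changes of Ccl2, Cxcl12 and Ccr2 became positive. The ranges of H-TBA and L-TBA were apart for 16 of the 34 members, where 33.5% of all tested genes showed no overlap. Whether a gene is tested depends on its counts, so these shares describe the better measured members and not the whole family.

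**Figure D1:**
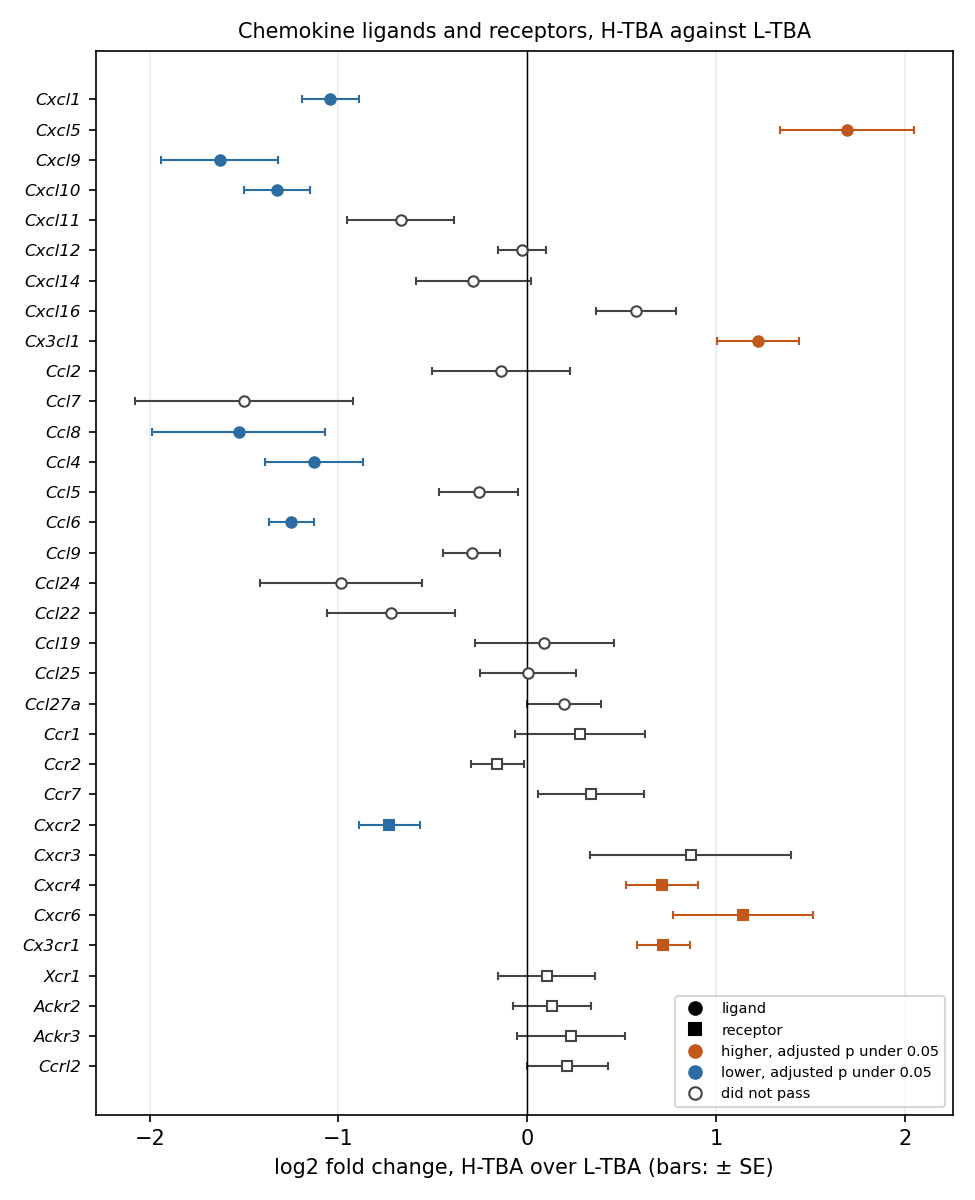
Log2 fold change (H-TBA over L-TBA, horizontal axis) of 33 of the 34 tested members, ligands as circles above and receptors as squares below; bars are ± SE and filled symbols passed at an adjusted p under 0.05. Cxcl5 (1.69) and Cx3cl1 (1.22) lie farthest to the right among the genes that passed, and Cxcl9 (-1.63) farthest to the left.

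Cxcl12 made up the largest part of the summed ligand CPM, with 57.2% to 66.0% in the H-TBA libraries and 47.8% to 63.1% in the L-TBA libraries. These shares are not corrected for exon length, which is 8176 bases for Cxcl12. Without Cxcl12 the ligands summed to 178, 187, 222 and 224 CPM in H-TBA 1 to 4, against 247, 283 and 221 CPM in L-TBA 1 to 3. The groups overlapped there, since L-TBA 3 lay below H-TBA 3 and 4. Receptors summed to 87.6, 94.3, 103 and 91.2 CPM in H-TBA 1 to 4, against 103, 86.5 and 87.5 CPM in L-TBA 1 to 3, and the ranges overlapped. Per kilobase of exon, averaged over the 7 libraries, Cxcl12 led the family at 38.6 CPM per kb, followed by Cxcl16 at 16.7, Ccl9 at 15.3 and Ccl6 at 12.5 CPM per kb. Cx3cr1 was the most abundant receptor by that measure at 5.25 CPM per kb, with Cxcr4 at 3.90 and Cxcr2 at 3.08 CPM per kb.

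**Figure D2:**
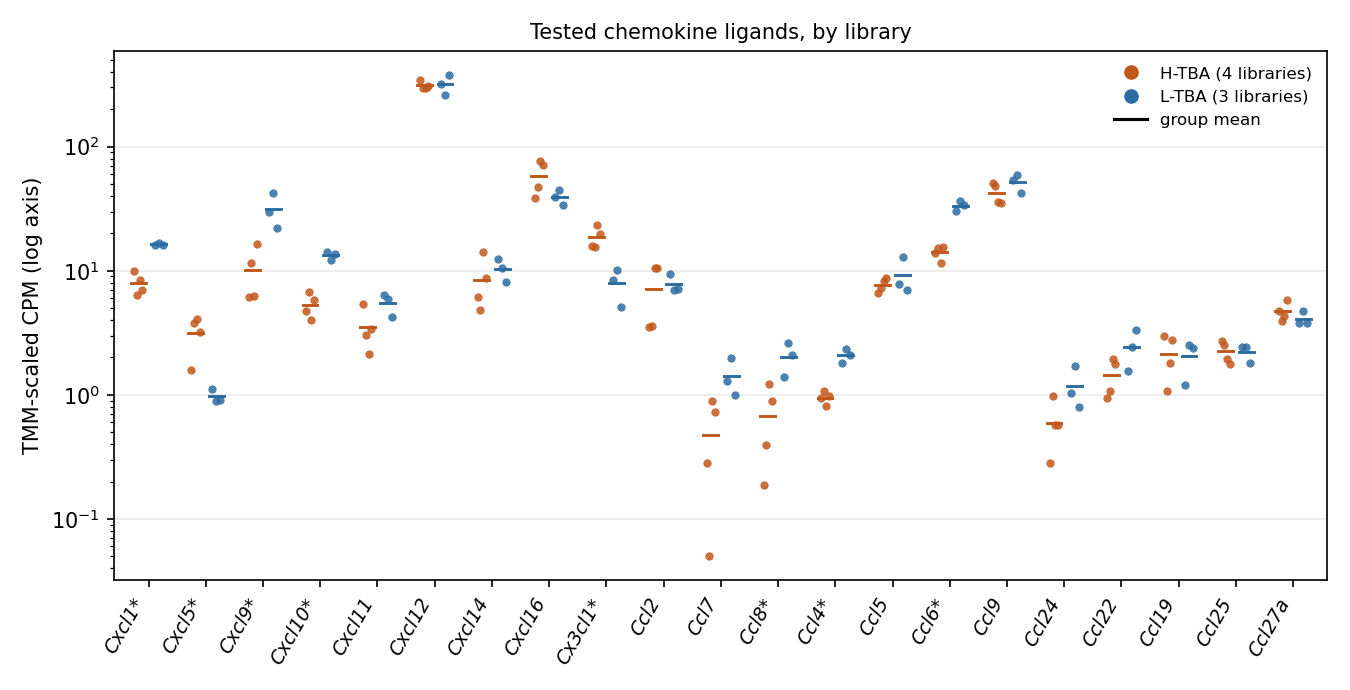
TMM-scaled CPM on a log axis for the 21 tested ligands; each point is a library, short lines are group means, and an asterisk marks a gene that passed. A value of 0 (Ccl7 in H-TBA 2) is drawn at 0.05. All 4 H-TBA points lie below all 3 L-TBA points for Cxcl1, Cxcl9, Cxcl10, Ccl4, Ccl6, Ccl7 and Ccl8, and above them for Cxcl5 and Cx3cl1.

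The ligands that draw neutrophils through Cxcr2 moved in opposite directions. Cxcl1 (ENSMUSG00000029380), a chemokine released by many cell types in acute inflammation, had 9.995, 6.35, 8.38 and 6.96 CPM in H-TBA 1 to 4, against 16.1, 16.7 and 16.2 CPM in L-TBA 1 to 3. The L-TBA libraries lay close together and above every H-TBA library, and Cxcl1 fell with a log2 fold change of -1.04 ± 0.15 (SE) and an adjusted p of 0.000849. Cxcl5 (ENSMUSG00000029371), a Cxcr2 ligand made by epithelia, had 1.59, 3.81, 4.07 and 3.24 CPM in H-TBA 1 to 4, against 1.12, 0.897 and 0.902 CPM in L-TBA 1 to 3. Every H-TBA library was above every L-TBA library, with H-TBA 1 the lowest of its group, and Cxcl5 rose by 1.69 ± 0.35 on the log2 scale (adjusted p = 0.00561). Cxcr2 (ENSMUSG00000026180), the neutrophil receptor for both, had 8.31, 7.53, 7.07 and 6.39 CPM in H-TBA 1 to 4, against 14.7, 10.1 and 11.6 CPM in L-TBA 1 to 3. Those groups did not overlap, and Cxcr2 fell with a log2 fold change of -0.73 ± 0.16 (adjusted p = 0.00748). Cxcl2, another Cxcr2 ligand, was below the filter at 5, 6, 9 and 8 counts in H-TBA 1 to 4, against 10, 7 and 10 counts in L-TBA 1 to 3, with sums of 28 counts in H-TBA and 27 in L-TBA. How the counting shared reads between similar copies such as Cxcl1, Cxcl2 and Cxcl3, or Ccl3 and Ccl4, or Ccr1 and Ccr1l1, is not given in the sources used here, so the values of these genes are uncertain to that extent. Of 12 neutrophil markers 4 could be tested, of which 1 fell and 0 rose (25% called, beside 23.9% of all tested genes). The marker that fell was S100a8, a calcium-binding protein abundant in neutrophils, with a log2 fold change of -1.11 ± 0.32 and an adjusted p of 0.0274. S100a8 was not called on leaving out H-TBA 3, H-TBA 4, L-TBA 2 or L-TBA 3. Without H-TBA 3 or H-TBA 4, 3 of the markers were tested, and without H-TBA 4 only Csf3r fell. Without H-TBA replicate 2 the number that fell was 2. The 12 summed to 7.47 to 10.5 CPM in H-TBA and 13.1 to 13.3 CPM in L-TBA, and Ly6g had 0 counts in all 7 libraries. In bulk tissue fewer cells of a type and less RNA per cell cannot be told apart, here and in what follows. The part of neutrophil number in the fall of Cxcr2 was not tested.

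The interferon-inducible ligands of Cxcr3, which draw activated T cells and NK cells, had 2 members that fell out of 3. Of all tested genes 10.7% were called lower. Cxcl9 (ENSMUSG00000029417), induced mainly by interferon gamma, had 6.17, 11.5, 6.26 and 16.3 CPM in H-TBA 1 to 4, against 29.6, 42.0 and 22.1 CPM in L-TBA 1 to 3. H-TBA 4 and H-TBA 2 were nearest to L-TBA, and the groups did not overlap. Cxcl9 fell with a log2 fold change of -1.63 ± 0.31 (adjusted p = 0.00336). Cxcl10 (ENSMUSG00000034855), induced by both types of interferon and by NF-kappaB, had 4.76, 6.74, 3.98 and 5.83 CPM in H-TBA 1 to 4, against 14.3, 12.2 and 13.5 CPM in L-TBA 1 to 3. No H-TBA library came near the lowest L-TBA value, and Cxcl10 fell with a log2 fold change of -1.33 ± 0.17 (adjusted p = 0.000552). Art3, which shares 5.9% of the Cxcl10 exon length on the opposite strand, had a fold change of -0.19 ± 0.32 and did not pass (adjusted p = 0.718). Cxcl11, which RefSeq's GRCm38 table lists as a transcribed pseudogene, had 5.42, 3.03, 2.11 and 3.40 CPM in H-TBA 1 to 4, against 6.39, 5.92 and 4.21 CPM in L-TBA 1 to 3. Its groups overlapped through H-TBA 1, and its fold change of -0.67 ± 0.28 did not pass (adjusted p = 0.11); without H-TBA replicate 1 it passed (adjusted p = 0.0109). Together these 3 ligands summed to 16.3, 21.3, 12.4 and 25.6 CPM in H-TBA 1 to 4, against 50.3, 60.1 and 39.9 CPM in L-TBA 1 to 3. Their receptor Cxcr3 had 0.934, 0.977, 2.11 and 1.78 CPM in H-TBA 1 to 4, against 0.173, 0.808 and 1.503 CPM in L-TBA 1 to 3. L-TBA 1 was the lowest and H-TBA 3 the highest, and the groups overlapped. The log2 fold change of 0.87 ± 0.53 did not pass (adjusted p = 0.268).

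The promoters of Cxcl10, Cxcl9 and Cxcl1, which fell, and of Cx3cl1, which rose, are shown because interferon and NF-kappaB are known to act on several chemokine genes through short elements near the start. Each is the 250 bases upstream of the RefSeq start on GRCm38.p6, 5′ to 3′ on the gene's own strand, with matches in capitals. The motifs searched on both strands were GGGANNTTCC (a kappaB core), GAAANNGAAA (an interferon-stimulated response element core) and TTCNNNGAA (a STAT site core). Of the 32851 such windows that RefSeq lists, 1.21% held GGGANNTTCC, 2.98% GAAANNGAAA and 7.02% TTCNNNGAA. Cxcl10 lies at chr5:92348890-92349139 (minus strand), Cxcl9 at chr5:92328080-92328329 (minus strand), Cxcl1 at chr5:90890995-90891244 (plus strand) and Cx3cl1 at chr8:94771930-94772179 (plus strand).
Cxcl10: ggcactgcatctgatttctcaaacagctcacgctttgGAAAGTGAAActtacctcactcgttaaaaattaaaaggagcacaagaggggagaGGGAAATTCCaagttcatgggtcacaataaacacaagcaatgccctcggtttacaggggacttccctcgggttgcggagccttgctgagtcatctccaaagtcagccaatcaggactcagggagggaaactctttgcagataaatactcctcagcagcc
Cxcl9: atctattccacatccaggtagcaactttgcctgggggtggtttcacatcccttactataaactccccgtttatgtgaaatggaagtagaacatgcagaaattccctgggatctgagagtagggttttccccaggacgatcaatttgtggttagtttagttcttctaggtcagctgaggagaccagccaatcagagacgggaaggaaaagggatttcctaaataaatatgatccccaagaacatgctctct
Cxcl1: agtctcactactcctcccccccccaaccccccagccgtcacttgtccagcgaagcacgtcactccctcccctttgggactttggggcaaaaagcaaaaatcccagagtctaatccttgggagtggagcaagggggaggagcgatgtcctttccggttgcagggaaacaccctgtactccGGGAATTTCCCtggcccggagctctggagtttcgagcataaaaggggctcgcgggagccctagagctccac
Cx3cl1: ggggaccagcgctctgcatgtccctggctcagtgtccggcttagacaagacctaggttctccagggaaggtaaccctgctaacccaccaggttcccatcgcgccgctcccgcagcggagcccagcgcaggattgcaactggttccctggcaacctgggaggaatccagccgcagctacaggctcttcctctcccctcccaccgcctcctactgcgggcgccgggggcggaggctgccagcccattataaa
In Cxcl10 the match to GAAANNGAAA covers bases -213 to -204 from the start and the match to GGGANNTTCC bases -159 to -150. The capitals of Cxcl1 are a pair of overlapping GGGANNTTCC matches, each on the other's opposite strand, from -71 to -61. Cxcl9 and Cx3cl1 had no match to these letters in the window. Among the 43 members found in the table, GGGANNTTCC also occurred in Cxcl2, Cxcl3, Ccl1 and Ccr3, and GAAANNGAAA in Ccl19 and Cxcl14. TTCNNNGAA occurred in Ccl17, Ccr1l1, Ccr6 and Cxcl14, of which Cxcl14 alone had enough counts to be tested.

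Transcripts of the CX3C pair rose together. Cx3cl1 (ENSMUSG00000031778), a membrane-anchored chemokine with a mucin stalk that can also be shed, had 15.8, 15.6, 23.2 and 19.7 CPM in H-TBA 1 to 4, against 8.46, 10.2 and 5.11 CPM in L-TBA 1 to 3. The lowest H-TBA library was above the highest L-TBA library, and Cx3cl1 rose with a log2 fold change of 1.22 ± 0.22 (adjusted p = 0.00237). Its receptor Cx3cr1 (ENSMUSG00000052336), carried by monocytes and several macrophage populations, had 25.7, 28.2, 31.8 and 28.2 CPM in H-TBA 1 to 4, against 20.9, 17.6 and 13.2 CPM in L-TBA 1 to 3. Again the groups did not overlap, and Cx3cr1 rose by 0.72 ± 0.14 (adjusted p = 0.00396). Markers of bile duct cells moved the same way as Cx3cl1 and Cxcl5: 10 of 10 rose, beside 13.1% of all tested genes. They summed to 955 to 1855 CPM in H-TBA and 457 to 721 CPM in L-TBA. Most of that sum was Spp1, a secreted phosphoprotein that recruited macrophages make as well, at 1195 ± 289 CPM in H-TBA (SD, n = 4) and 513 ± 119 CPM in L-TBA (SD, n = 3). Krt19, the keratin that marks duct epithelium, was at 49.6 ± 17.9 CPM in H-TBA (SD, n = 4) and 6.04 ± 1.81 CPM in L-TBA (SD, n = 3). The part of duct cells in these results was not tested. Shedding enzymes were measured in the adhesion and processing list, where neither Adam10 (-0.08 ± 0.08, adjusted p = 0.519) nor Adam17 (-0.14 ± 0.11, adjusted p = 0.401) passed.

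**Figure D3:**
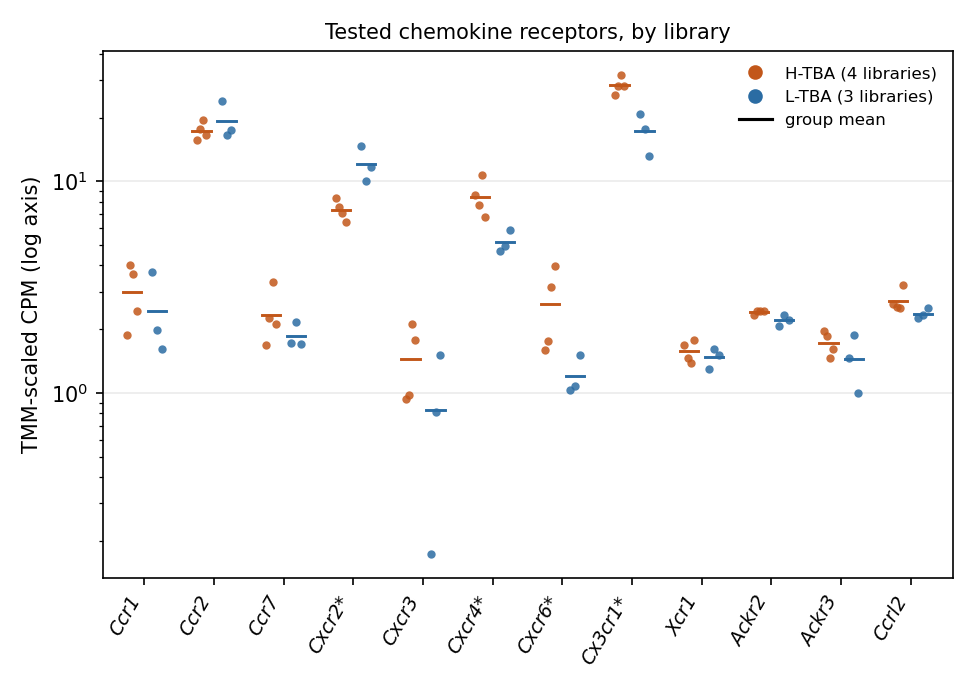
TMM-scaled CPM on a log axis for 12 of the 13 tested receptors; each point is a library, short lines are group means, and an asterisk marks a gene that passed. The 4 H-TBA points lie above the 3 L-TBA points for Cxcr4, Cxcr6, Cx3cr1, Ackr2 and Ccrl2, of which Cxcr4, Cxcr6 and Cx3cr1 passed, and below them for Cxcr2.

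Cxcl16, the other membrane-anchored chemokine, and its receptor Cxcr6 both had positive fold changes and were highest in the same libraries, H-TBA 3 and 4. Cxcl16 had 38.6, 47.0, 77.2 and 71.5 CPM in H-TBA 1 to 4, against 39.2, 44.5 and 34.2 CPM in L-TBA 1 to 3. The other H-TBA libraries were above L-TBA, while H-TBA 1 lay within the L-TBA range. Its log2 fold change of 0.58 ± 0.21 did not pass (adjusted p = 0.0709) and passed without H-TBA replicate 1 (adjusted p = 0.00572). Zmynd15, which shares 18.3% of the Cxcl16 exon length on the opposite strand, could share its reads if strand was not used in counting. Zmynd15 had a log2 fold change of 0.18 ± 0.15 and did not pass (adjusted p = 0.411). Cxcr6 (ENSMUSG00000048521), found on NKT cells, T cells and other lymphocytes of the liver, had 1.59, 1.76, 3.17 and 3.96 CPM in H-TBA 1 to 4, against 1.04, 1.08 and 1.503 CPM in L-TBA 1 to 3. Its H-TBA libraries were all above L-TBA, H-TBA 1 and 2 by little. Cxcr6 rose by 1.14 ± 0.37 (adjusted p = 0.0454), but not when H-TBA replicate 3 or 4 or any of L-TBA replicates 1 to 3 was left out (adjusted p = 0.101, 0.123, 0.142, 0.13 and 0.068 in that order). Of 12 T cell markers 10 were tested and 0 passed in either direction, where 23.9% of all tested genes were called. The 12 summed to 13.9 to 30.9 CPM in H-TBA and 16.1 to 23.3 CPM in L-TBA.

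Cxcl12, the ligand that retains haematopoietic and lymphoid cells in tissue through Cxcr4, had 346, 299, 297 and 309.6 CPM in H-TBA 1 to 4, against 321, 259 and 378 CPM in L-TBA 1 to 3. The groups overlapped, and the fold change was -0.03 ± 0.13 (adjusted p = 0.898); its sign turned with library totals (0.13) and without L-TBA replicate 3 (0.11). Cxcr4 (ENSMUSG00000045382) had 8.59, 7.72, 10.7 and 6.80 CPM in H-TBA 1 to 4, against 4.66, 4.94 and 5.91 CPM in L-TBA 1 to 3. Each H-TBA library was above each L-TBA library, and Cxcr4 rose by 0.71 ± 0.19 (adjusted p = 0.0186). It did not pass once L-TBA replicate 1 or 2 was left out (adjusted p = 0.0752 and 0.0631). Ackr3, the atypical receptor that takes up Cxcl12, had 1.96, 1.86, 1.46 and 1.62 CPM in H-TBA 1 to 4, against 1.47, 1.88 and 1.002 CPM in L-TBA 1 to 3. It overlapped between groups and did not pass (0.23 ± 0.28, adjusted p = 0.601). Cxcl14, an epithelial chemokine, had 6.17, 4.79, 14.1 and 8.74 CPM in H-TBA 1 to 4, against 12.4, 10.6 and 8.11 CPM in L-TBA 1 to 3, with the lowest value in H-TBA 2 and the highest in H-TBA 3. Its fold change of -0.28 ± 0.30 did not pass (adjusted p = 0.54).

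Of the 3 tested ligands that draw monocytes, 1 fell, beside 10.7% of all tested genes. The other 2 had negative fold changes, as did 7536 of all 15249 tested genes, and that of Ccl2 turned positive with library totals. Ccl8 (ENSMUSG00000009185), made by macrophages, had 0.187, 0.391, 1.22 and 0.890 CPM in H-TBA 1 to 4, against 1.38, 2.60 and 2.10 CPM in L-TBA 1 to 3. H-TBA 3 came closest to L-TBA 1, without overlap. Ccl8 fell with a log2 fold change of -1.53 ± 0.46 (adjusted p = 0.0326), and did not pass with library totals (adjusted p = 0.0604) or once H-TBA replicates 2 or 4, or L-TBA replicates 2 or 3, were left out (adjusted p = 0.0832, 0.0558, 0.125 and 0.0798). Ccl7 had 0.280, 0, 0.895 and 0.728 CPM in H-TBA 1 to 4, against 1.30, 1.97 and 1.002 CPM in L-TBA 1 to 3. These groups did not overlap either, yet the raw counts were few (3, 0, 11 and 9 counts in H-TBA 1 to 4, against 15, 22 and 10 counts in L-TBA 1 to 3) and the fold change of -1.50 ± 0.58 did not pass (adjusted p = 0.0837). Ccl2, the main ligand of Ccr2 on inflammatory monocytes, had 3.55, 3.62, 10.6 and 10.5 CPM in H-TBA 1 to 4, against 9.50, 6.99974 and 7.11 CPM in L-TBA 1 to 3. H-TBA 1 and 2 were below every L-TBA library and H-TBA 3 and 4 above every one, so that the fold change was -0.14 ± 0.37 with an adjusted p of 0.822. Its sign also turned without H-TBA replicate 1, H-TBA replicate 2 or L-TBA replicate 1. Ccr2 had 15.7, 17.7, 19.4 and 16.5 CPM in H-TBA 1 to 4, against 24.0, 16.5 and 17.4 CPM in L-TBA 1 to 3. L-TBA 1 was the highest, the groups overlapped, and Ccr2 did not pass (-0.16 ± 0.14, adjusted p = 0.453).

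Among the inflammatory CC ligands of macrophages, lymphocytes and eosinophils, 2 of 5 tested fell, beside 10.7% of all tested genes. The other 3 had negative fold changes that did not pass, and 7536 of all 15249 tested genes had negative fold changes. Ccl6 (ENSMUSG00000018927), a Ccr1 ligand of mouse macrophages and other myeloid cells, had 13.9, 15.3, 11.5 and 15.5 CPM in H-TBA 1 to 4, against 30.1, 36.6 and 33.7 CPM in L-TBA 1 to 3. The H-TBA and L-TBA ranges were far apart, and Ccl6 fell with a log2 fold change of -1.25 ± 0.12 and the smallest adjusted p of the 34 members, 0.000114. Ccl9, its neighbour among the myeloid ligands of Ccr1, had 50.6, 48.4, 35.5 and 35.3 CPM in H-TBA 1 to 4, against 53.9, 59.5 and 42.4 CPM in L-TBA 1 to 3. There H-TBA 1 and 2 lay within the L-TBA range and the fold change of -0.30 ± 0.15 did not pass (adjusted p = 0.186). Ccl4 (ENSMUSG00000018930), a chemokine of activated macrophages and lymphocytes, had 0.934, 1.08, 0.813 and 0.971 CPM in H-TBA 1 to 4, against 1.81, 2.33 and 2.10 CPM in L-TBA 1 to 3. All H-TBA values were below all L-TBA values, and Ccl4 fell with a log2 fold change of -1.13 ± 0.26 (adjusted p = 0.00953). Ccl5, a Ccr1 ligand made by T cells and NK cells, had 6.63, 7.23, 8.29 and 8.74 CPM in H-TBA 1 to 4, against 7.86, 12.8 and 7.01 CPM in L-TBA 1 to 3. L-TBA 2 was the highest and the groups overlapped (-0.26 ± 0.21 on the log2 scale, adjusted p = 0.412); leaving out L-TBA replicate 2 turned the sign. Ccl24, an eosinophil-attracting ligand of Ccr3, had 0.280, 0.977, 0.569 and 0.566 CPM in H-TBA 1 to 4, against 1.04, 1.71 and 0.801 CPM in L-TBA 1 to 3, with H-TBA 2 inside the L-TBA range. It did not pass (-0.99 ± 0.43, adjusted p = 0.12).

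Ccr1, the receptor of Ccl6 and Ccl9 on myeloid cells, had 1.87, 4.01, 3.66 and 2.43 CPM in H-TBA 1 to 4, against 3.71, 1.97 and 1.60 CPM in L-TBA 1 to 3, and its libraries were mixed between the groups. It did not pass (0.28 ± 0.34, adjusted p = 0.597). Of the 9 Kupffer cell markers tested 4 fell (Cd5l, Folr2, Clec4f and Adgre1) and 0 rose (44.4% called, beside 23.9% of all tested genes). The 10 listed summed to 386 to 461 CPM in H-TBA, against 536, 541 and 908 CPM in L-TBA 1 to 3. L-TBA 3 stood apart in this list. Marco, a scavenger receptor, had 31, 18, 20 and 60 counts in H-TBA 1 to 4, against 13, 10 and 202 counts in L-TBA 1 to 3, and Timd4, a receptor of resident Kupffer cells, had 6, 8, 1 and 15 counts in H-TBA 1 to 4, against 15, 6 and 86 counts in L-TBA 1 to 3. Ccl6 and Ccl4 were not highest in that library but in L-TBA 2. Without L-TBA replicate 3, Cd5l (log2 fold change -1.20), Folr2 (-1.07) and Clec4f (-1.05) still fell (adjusted p = 0.00239, 0.00434 and 0.00362), Adgre1 did not pass (adjusted p = 0.0731) and C6 rose (0.55, adjusted p = 0.0214). Cd5l, a protein secreted by Kupffer cells, was at 97.1 ± 22.7 CPM in H-TBA (SD, n = 4) and 249 ± 51.4 CPM in L-TBA (SD, n = 3), and Clec4f, their defining lectin, at 25.5 ± 5.85 CPM in H-TBA (SD, n = 4) and 74.1 ± 37.5 CPM in L-TBA (SD, n = 3). C6, a complement gene that hepatocytes also express, made up the largest share of the Kupffer sum in H-TBA, at 177 ± 25.2 CPM in H-TBA (SD, n = 4) and 159 ± 66.3 CPM in L-TBA (SD, n = 3). Of 13 markers of monocytes and recruited macrophages 2 rose (Spp1 and Cd9) and 3 fell (F13a1, Fcgr1 and Chil3), or 38.5% called. Their sum was 1267 to 1957 CPM in H-TBA and 906 to 1088 CPM in L-TBA. Spp1 was its largest member in every library, though in L-TBA 3, at 386 CPM, it was close to Lyz2 at 339 CPM. The part of macrophage numbers in the calls of Ccl6, Ccl4 and Cx3cr1 was not tested.

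The remaining tested ligands and receptors, most of them of lymphoid tissue and epithelia, did not pass. Ccl22, which draws regulatory T cells through Ccr4, had 0.934, 1.08, 1.95 and 1.78 CPM in H-TBA 1 to 4, against 1.55, 2.42 and 3.31 CPM in L-TBA 1 to 3 (fold change -0.72 ± 0.34, adjusted p = 0.151). Ccl19, the dendritic cell and T cell ligand of Ccr7, had 2.99, 1.08, 1.79 and 2.75 CPM in H-TBA 1 to 4, against 1.21, 2.51 and 2.40 CPM in L-TBA 1 to 3 (0.09 ± 0.37, adjusted p = 0.89). The groups overlapped for both. For Ccr7 itself the values were 1.68, 2.25, 3.33 and 2.10 CPM in H-TBA 1 to 4, against 1.73, 2.15 and 1.70 CPM in L-TBA 1 to 3 (0.34 ± 0.28, adjusted p = 0.425), with H-TBA 3 the highest. Ccl25, a ligand of Ccr9, had 2.71, 2.54, 1.95 and 1.78 CPM in H-TBA 1 to 4, against 2.42, 2.42 and 1.80 CPM in L-TBA 1 to 3 (0.00 ± 0.25, adjusted p = 0.992). In the case of Ccl27a, a skin chemokine and Ccr10 ligand, the libraries gave 4.76, 3.91, 4.31 and 5.83 CPM in H-TBA 1 to 4, against 3.80, 4.76 and 3.81 CPM in L-TBA 1 to 3 (0.19 ± 0.20, adjusted p = 0.52). Both sets of values were mixed between the groups. Xcr1, the receptor of cross-presenting dendritic cells, had 1.68, 1.47, 1.38 and 1.78 CPM in H-TBA 1 to 4, against 1.30, 1.62 and 1.503 CPM in L-TBA 1 to 3 (0.10 ± 0.26, adjusted p = 0.81).

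None of the 3 atypical receptors tested passed, where 23.9% of all tested genes were called. Ackr3 is described above with Cxcl12. Ackr2, which scavenges inflammatory CC chemokines, had 2.34, 2.44, 2.44 and 2.43 CPM in H-TBA 1 to 4, against 2.07, 2.33 and 2.20 CPM in L-TBA 1 to 3. Every H-TBA library was above every L-TBA library by a small step. The log2 fold change of 0.13 ± 0.21 did not pass (adjusted p = 0.696). Ccrl2, which binds chemerin, had 2.62, 2.54, 2.52 and 3.24 CPM in H-TBA 1 to 4, against 2.25, 2.33 and 2.50 CPM in L-TBA 1 to 3. It showed the same order without passing (0.21 ± 0.21, adjusted p = 0.511). Ackr1, which holds chemokines on venular endothelium and red cells, fell short of the filter with 6, 5, 10 and 6 counts in H-TBA 1 to 4, against 17, 10 and 19 counts in L-TBA 1 to 3. All H-TBA libraries but H-TBA 3 were below all L-TBA libraries, and H-TBA 3 tied with L-TBA 2 at 10 counts. With no filter Ackr1 was lower in H-TBA (log2 fold change -1.24, adjusted p = 0.0426); it was also tested without H-TBA replicate 1 (adjusted p = 0.0403), H-TBA replicate 2 (0.0717), L-TBA replicate 2 (0.0249) and L-TBA replicate 3 (0.138). Cadm3, a neighbour on the same strand that shares 25.7% of the Ackr1 exon length, fell as well (-1.06 ± 0.33, adjusted p = 0.0387), so reads of the pair may be shared.

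The 25 members below the filter included 2 with 0 counts in all 7 libraries, Ccl26 and Ccr8, for which a count of 0 allows up to 3 counts, or 0.247 to 0.300 CPM per library. A further 14 had 2 to 18 counts over all libraries (Cxcl3, Ccl1, Ccr1l1, Cxcl15, Cxcl17, Ccl11, Ccr3, Cxcr1, Ccr10, Ccl19-ps1, Ccr4, Ccl12, Ccl17 and Ccr6), too few to compare at this depth. The other 9 had 31 to 73 counts. Ccl20, an epithelial ligand of Ccr6, had 2, 9, 7 and 9 counts in H-TBA 1 to 4, against 1, 2 and 1 counts in L-TBA 1 to 3. H-TBA 1 was at the level of L-TBA 2, the other H-TBA libraries were higher, and Ccl20 passed with no filter (log2 fold change 2.18, adjusted p = 0.0481). Ccl3, a ligand of Ccr1, had 4, 5, 8 and 5 counts in H-TBA 1 to 4, against 16, 7 and 12 counts in L-TBA 1 to 3. H-TBA 3 exceeded L-TBA 2, and Ccl3 did not pass with no filter (-1.13, adjusted p = 0.0989); without L-TBA replicate 2 it was tested and lower (adjusted p = 0.0397). Xcl1, Ccr9 and Ackr4 had 22, 21 and 23 counts over H-TBA, against 22, 14 and 14 over L-TBA.

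The B cell attractant Cxcl13 and its receptor Cxcr5 were high in L-TBA 3 alone. Cxcl13 had 2, 1, 1 and 4 counts in H-TBA 1 to 4, against 2, 1 and 45 counts in L-TBA 1 to 3. Cxcr5 had 5, 7, 10 and 3 counts in H-TBA 1 to 4, against 5, 5 and 23 counts in L-TBA 1 to 3, and Ccr6, carried by B cells and some T cells, had 2, 0, 3 and 2 counts in H-TBA 1 to 4, against 2, 0 and 9 counts in L-TBA 1 to 3. With no filter Cxcl13 passed as lower in H-TBA (log2 fold change -3.05, adjusted p = 0.0282), a value that rests on the 45 counts of L-TBA 3; without that library it had 1 to 4 counts per library and was not tested. Transcripts of B cells were high in the same library. Ms4a1, which encodes CD20, had 2, 10, 20 and 8 counts in H-TBA 1 to 4, against 8, 10 and 96 counts in L-TBA 1 to 3. Cd79a, a part of the B cell receptor, had 14, 13, 44 and 32 counts in H-TBA 1 to 4, against 20, 20 and 103 counts in L-TBA 1 to 3. Jchain, of antibody-secreting cells, had 100, 27, 146 and 46 counts in H-TBA 1 to 4, against 70, 114 and 608 counts in L-TBA 1 to 3. The list of 10 B and plasma cell markers summed to 372 to 459 CPM in H-TBA and 268 to 849 CPM in L-TBA. Of 7 tested, 1 was higher (Sdc1, also a hepatocyte gene) and 1 lower (Ighm), or 28.6% called beside 23.9% of all tested genes. Ighm did not pass on leaving out H-TBA 2, H-TBA 4 or L-TBA 3, and without L-TBA replicate 1 the number lower was 3. Their part in the Cxcl13 and Cxcr5 values was not tested.

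**Figure D4:**
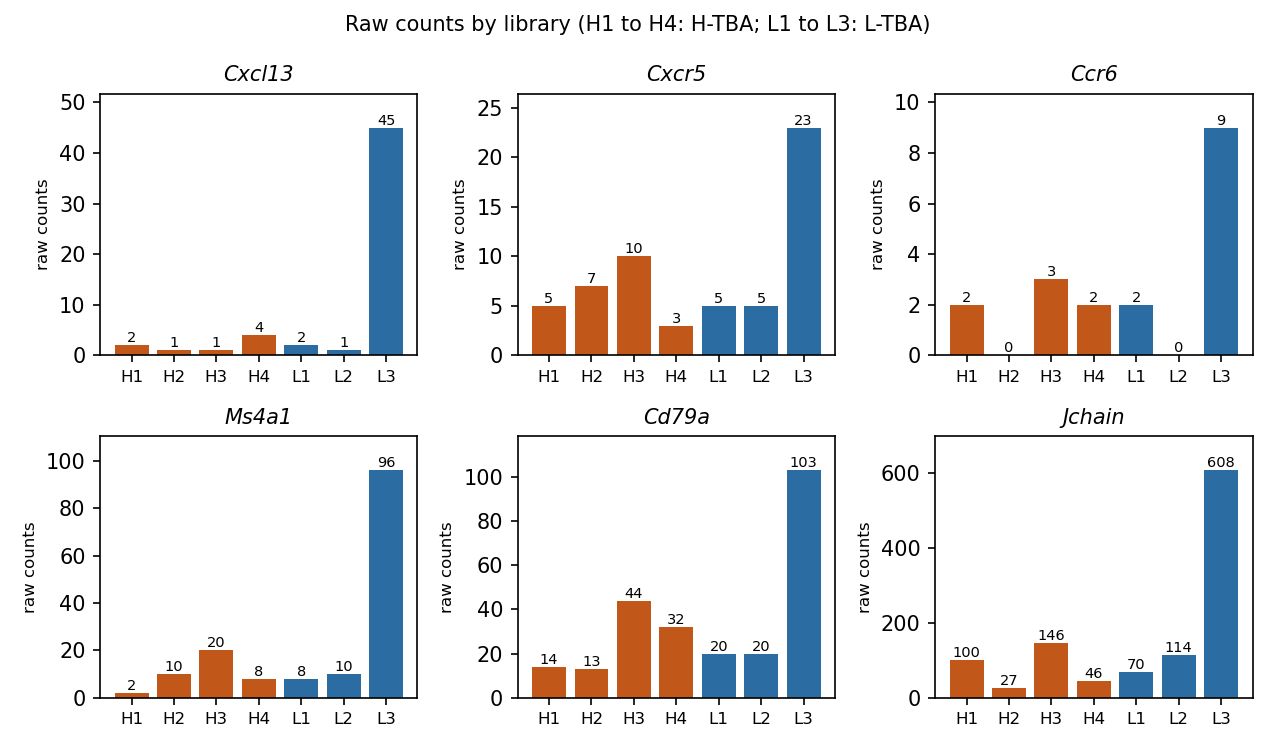
Raw counts by library (bars; H1 to H4 are H-TBA, L1 to L3 are L-TBA) of the chemokine genes Cxcl13, Cxcr5 and Ccr6 and the B cell and plasma cell genes Ms4a1, Cd79a and Jchain. L-TBA 3 has the tallest bar in each panel, with 45 counts of Cxcl13 and 103 of Cd79a.

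Genes that act on chemokine transcription, inhibitors among them, were read from the same fit. In the list of transcription factors and their inhibitors, 2 of 23 rose and 5 fell (30.4% called, beside 23.9% of all genes). The median log2 fold change was 0.11. The number that rose was 5 without H-TBA replicate 1 and 0 or 1 without any other single library, and 4 fell without L-TBA 1 or L-TBA 2, where Irf7 did not pass. Those that fell included 3 factors of interferon signalling: Stat2 (-0.63 ± 0.10, adjusted p = 0.00115), Irf9 (-0.39 ± 0.09, adjusted p = 0.00832) and Irf7 (-0.35 ± 0.09, adjusted p = 0.0182). Stat2, a factor of the type I interferon response, had 42.5, 39.4, 36.1 and 45.7 CPM in H-TBA 1 to 4, against 59.9, 69.4 and 60.1 CPM in L-TBA 1 to 3. The H-TBA libraries were all below the L-TBA libraries. Bcl3, a cofactor of NF-kappaB, fell (-0.54 ± 0.10, adjusted p = 0.00339). Nfkbiz, another such cofactor, rose (0.40 ± 0.12, adjusted p = 0.033), as did Cebpd (0.79 ± 0.26, adjusted p = 0.0499). The NF-kappaB subunit genes Rela (0.04 ± 0.12) and Nfkb1 (0.17 ± 0.13) did not pass (adjusted p = 0.869 and 0.379). Among 25 cytokines and receptors that induce or restrain chemokines 16 were tested, 3 rose and 1 fell (25% called, beside 23.9% of all genes). Their median was -0.10. Without H-TBA 2, and also without L-TBA 3, 1 rose, without L-TBA replicate 2, 0 rose, and without H-TBA replicate 4, 0 fell. Ltb, a lymphotoxin subunit that organises lymphoid tissue, rose (1.16 ± 0.29, adjusted p = 0.0154), the interleukin 1 alpha gene Il1a fell (-0.93 ± 0.24, adjusted p = 0.0161), and Il17rc, a receptor subunit for interleukin 17, rose (0.41 ± 0.11, adjusted p = 0.0185). Ltb was not called without L-TBA 1 or L-TBA 2, and Il1a not without H-TBA 4 or L-TBA 3. Il17rc was not called without H-TBA 2, L-TBA 2 or L-TBA 3. Il17a and Il13 had 0 counts in all libraries.

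Behind the receptors, 2 of 31 tested signalling genes rose and 5 fell (22.6% called, beside 23.9% of all genes; median -0.14); the number that fell was 2 or 3 on leaving out any of H-TBA libraries 2 to 4, L-TBA 1 and L-TBA 3. Vav1, an exchange factor for Rac in leukocytes, fell (-0.67 ± 0.12, adjusted p = 0.00206). The receptor kinase gene Grk5 and the arrestin gene Arrb1, whose products turn off and internalise receptors, rose (1.01 ± 0.22 and 0.72 ± 0.16, adjusted p = 0.00662 and 0.00715). In the list of adhesion and processing genes 1 of 19 rose and 4 fell (26.3% called, beside 23.9% of all genes; median -0.08), or 2 and 4 without H-TBA replicate 1 and 1 and 2 without L-TBA replicate 3. Itgal, the alpha chain of the leukocyte integrin LFA-1, fell (-0.83 ± 0.16, adjusted p = 0.00329), Jam3, a junction protein used in transmigration, rose (1.42 ± 0.27, adjusted p = 0.00376), and Mme, a peptidase, fell (-0.53 ± 0.10, adjusted p = 0.00413). Dpp4, which trims the amino terminus of Cxcl10 and other chemokines, was at 76.9 ± 10.8 CPM in H-TBA (SD, n = 4) and 104 ± 6.78 CPM in L-TBA (SD, n = 3). It fell (-0.44 ± 0.11, adjusted p = 0.0133), but was not called without L-TBA replicate 3. Pf4 and Ppbp are platelet chemokines whose mouse symbols lie outside the naming rule. Pf4 had 2.15, 2.05, 3.66 and 2.83 CPM in H-TBA 1 to 4, against 4.23, 1.88 and 1.30 CPM in L-TBA 1 to 3 and did not pass (0.10 ± 0.37, adjusted p = 0.874), and Ppbp was below the filter at 6, 2, 0 and 0 counts in H-TBA 1 to 4, against 4, 8 and 3 counts in L-TBA 1 to 3.

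Among the remaining cell lists, sinusoidal endothelium had 6 of 8 markers lower and 0 higher (75% called, beside 23.9% of all tested genes). Its sums were 172 to 197 CPM in H-TBA and 248 to 290.0 CPM in L-TBA. The number lower was 5 on leaving out H-TBA 3, H-TBA 4, L-TBA 1 or L-TBA 3, and 7 without H-TBA 2. Vascular and lymphatic endothelium had 3 higher and 3 lower of 9 tested (66.7% called), with sums of 232 to 306 CPM in H-TBA and 285 to 308 CPM in L-TBA. Its number higher was 5 without H-TBA replicate 1, and its number lower was 2 without L-TBA replicate 3. Stellate cells and fibroblasts had 4 higher and 1 lower of 11 (45.5% called), with sums of 858 to 965 CPM in H-TBA and 569 to 1016 CPM in L-TBA. There were 5 higher and 2 lower without H-TBA replicate 1, 6 higher without L-TBA replicate 1, and 3 higher without L-TBA replicate 3. Dendritic cell markers had 4 of 9 higher and 0 lower (44.4% called). Cd24a, at the head of them, is also a bile duct gene. The number higher was 1 without any single library but H-TBA 1 and L-TBA 3, and 2 without L-TBA 3. The dendritic list summed to 99.4 to 191 CPM in H-TBA and 73.4 to 93.5 CPM in L-TBA. In the NK and innate lymphoid list 0 of 4 tested passed, with sums of 37.5 to 50.3 CPM in H-TBA and 48.6 to 72.5 CPM in L-TBA. No gene passed either in the list of mast cells, basophils and eosinophils, 0 of 1 (4.02 to 7.40 CPM in H-TBA and 3.50 to 5.01 CPM in L-TBA), where Epx, Fcer1a and Mcpt8 had 0 counts throughout. The hepatocyte list had 2 higher and 2 lower of 8 (50% called). The part of any of these populations in the chemokine results was not tested.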

How the data were processed

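RNA from whole liver was sequenced in 7 libraries, 4 H-TBA and 3 L-TBA, grouped by their labels. The authors deposited whole-number counts per Ensembl gene that were not normalized; per the submitters' processing notes, mm9, TopHat2 2.0.11, CASAVA and DESeq2 1.18.1 were used, in roles that are not stated. Which counter, annotation and strand setting made the counts is not given in the sources used here. Symbols came from GENCODE M21 for 32897 of 37620 IDs, and coordinates only from RefSeq's GRCm38.p6 table, never joined to mm9. No row was matched to the names Ccl19-ps3, Ccl21a, Ccl21b, Ccl27b and Ccl28, so these were not analysed here. IDs without a symbol could not be matched to the naming rule. A few genes that enter the counts, medians and sums are not reported here by name.

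CPM values are counts divided by the TMM-scaled library size. Counts were tested with edgeR 4.0.16 in R 4.3.3 (TMM, filterByExpr with a minimum count of 10 and total of 15, quasi-likelihood fit, Benjamini-Hochberg over 15249 genes, threshold 0.05, common biological coefficient of variation 0.125). The SE of a log2 fold change was its size over the square root of the F statistic. The procedure was tested on simulated data. No library repeated another of its group (chi-square over its degrees of freedom at least 5.64 for each pair). Alternatives were DESeq2 1.42.0, limma-voom (limma 3.58.1), other scalings, filters and thresholds, a replicate block and leaving out each library. Of the 34 tested members 33 were named. From some partner lists up to 3 genes among those of smallest adjusted p were named, as were Pf4 and Ppbp. Other lists of cell markers were given by counts and sums only. Other partner genes were named for their role after their values were seen. The members and gene lists were chosen with earlier results of these data known. Intervals and limits from counts cover counting error only, and depth was 9996990 to 12152613 counts per library.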

Additional observations from a re-analysis of the deposited data

Results flagged for a closer look

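In 2 cases a single H-TBA library lay apart from the other 3 of its group. Ccrl2, the atypical receptor that binds chemerin, had 3.24 CPM in H-TBA 4, the highest of its group, and the gap to the next library was 0.868 of the group's whole range. Ackr2, the scavenger of inflammatory CC chemokines, had 2.34 CPM in H-TBA 1, the lowest of its group, with a gap of 0.852 of the range. Both gaps exceed Dixon's critical value for 4 libraries, which chance passes in about 1 of 20 groups, and 34 members were examined. For Ackr2 the other H-TBA libraries lay within 2.43 to 2.44 CPM, so the absolute gap was small.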

How the results depend on the processing

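The 13 called members kept direction and call in 193 of 208 alternative values, lost the call in 15 and reversed in 0; 9 members, among them Ccl6, Cxcl10, Cxcl1, Cx3cl1, Cxcl9, Cxcl5, Cx3cr1 and Cxcr2, kept it under all 16 alternatives. Cxcl16 gained a call with DESeq2, limma-voom, library totals, no filter, a threshold of 0.1 and without H-TBA replicate 1 (range of adjusted p over all alternatives 0.00572 to 0.27). Cxcl11 gained one with limma-voom and without H-TBA replicate 1 (0.0109 to 0.293), and Ccl7 at a threshold of 0.1. With no filter 4 ligands rose. Library totals gave 3117 higher and 832 lower genes among all tested. Leaving out each library in turn gave 2574 to 4552 called genes (1470 to 2429 higher, 1035 to 2123 lower), 7 to 10 ligands, 3 to 6 receptors (1 to 3 higher) and 52 to 81 partner genes. The receptor minimum of 3 was without L-TBA replicate 1, and the higher count was 1 without L-TBA replicate 1 or 2. Signs turned only among members that did not pass. With library totals Ccl2 was at 0.0357, Cxcl12 at 0.13 and Ccr2 at 0.000444. Ccl25 was at -0.000945 with DESeq2, -0.0802 with limma-voom and -0.003098 with DESeq2 size factors. Over the fits without 1 library, log2 fold changes ran from -0.42 to 0.0538 for Ccl5, -0.39 to 0.0806 for Ccl2, -0.19 to 0.30 for Ccl19, -0.16 to 0.11 for Cxcl12, -0.12 to 0.10 for Ccl25 and -0.26 to 0.0287 for Ccr2. The causes were not tested.

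With the replicate number as a block over the 6 libraries that share numbers, 1873 genes were called (1124 higher, 749 lower), 6 ligands and 4 receptors; Ccl4 (adjusted p = 0.0572), Ccl8 (0.0525) and Cxcr6 (0.126) lost their calls and Ccl19 was at -0.0777. Deviations of libraries with the same number correlated at -0.103, -0.0589 and -0.0627, so that numbers were not taken as pairs, and the block also has fewer libraries. Genes with few counts, among them Ccl7, Ccl8, Ccl24 and Cxcr3, are limited by depth.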
